A study of Mus musculus with 11 samples.

Results

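The non-metastatic melanoma line 4C11- was compared with the melanocyte line melan-a in mouse cultures. The comparison used 5 of the 11 deposited libraries, taken by their sample titles: replicates 1, 2 and 3 of 4C11- and replicates 2 and 3 of melan-a, with all 14272 deposited genes. Melan-a is a spontaneously immortalized, nonmalignant melanocyte line, and its medium held the phorbol ester PMA at 200 nM. Repeated cycles in which its cells were kept from anchoring gave the lines 4C, 4C11- and 4C11+, whose medium held no PMA. All lines were kept in RPMI medium with 5% fetal bovine serum, and total RNA was sequenced after removal of ribosomal RNA. Each line is a single line, so the p-values below measure the spread between cultures, and an effect of PMA cannot be told apart from an effect of the line.

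Melanocytes make melanin in melanosomes, with the enzymes tyrosinase, TYRP1 and DCT. The transcription factors MITF and SOX10 maintain this program, and the receptor KIT supports survival of the lineage. Phorbol esters activate protein kinase C and are a usual supplement for cultured melanocytes. Mesenchymal cells make fibrillar collagens and contractile filaments, and transcription factors such as those of the Snail and Twist families promote that state.

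Values are log2 CPM as deposited, and a difference is the 4C11- mean minus the melan-a mean on that scale. Every library has the same highest value and nearly the same median, which scaling to the read total alone would not give. The layout resembles that of a quantile step, which the methods do not mention, so values, CPM sums and floors are on this shared scale and are not plain shares of reads. The depth, estimated from steps of single reads on the same scale and so approximate, was 3.50 M and 5.82 M reads in melan-a and 4.58 M, 7.42 M and 6.69 M reads in 4C11-. Values are given in the order of replicates 2 and 3 for melan-a and 1, 2 and 3 for 4C11-. A gene with no library of a group above 3 reads is called absent from that group. Its difference is a lower bound, computed with the mean of that group's values at 3 reads, -0.39 in melan-a and -1.57 in 4C11-, and floors cover counting error only. A gene with 1 library of a group at a few reads more than 3 is given by its plain difference, which also rests on few reads. Examples are Tyrp1 (8 reads), Dct (4) and Mlana (5) in 4C11-, and Kitl (4) and Chn1 (4) in melan-a. In every gene named below as risen or fallen, all 3 4C11- libraries lay on the same side of both melan-a libraries. In bulk RNA, fewer cells that express a gene and less RNA per cell cannot be told apart.

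The melan-a libraries differed from each other, and with 2 of them neither can be called the odd library. Replicate 2 and replicate 3 differed by at least 4 log2 units in 148 genes with replicate 2 higher and in 41 with replicate 3 higher. Tenascin C (Tnc), a matrix glycoprotein, was 8.30 and -1.42 in melan-a and 9.41, 8.61 and 8.60 in 4C11-, so melan-a replicate 2 lay near 4C11- and replicate 3 did not. The receptor gene Pdgfrb had the same layout, with 6.90 and 0.89 in melan-a and 7.86, 8.25 and 7.46 in 4C11-. Over the extracellular matrix genes, replicate 2 was the higher melan-a library in 50 of 62, with a median gap of 1.15 against -0.05 over all genes. Over the melanin synthesis genes it was the lower library in 11 of 14, with a median gap of -1.61. The regulators of the melanocyte lineage went the other way, with replicate 2 higher in 8 of 10 and a median gap of 0.72. In 4C11-, replicate 1 stood apart from the other libraries and deviated with exon length: its median deviation from the 4C11- mean was 0.28 in the fifth of genes with the shortest exons in total and -0.13 in the fifth with the longest, against -0.21 and 0.13 in replicate 3. The long gene Mki67, a marker of cycling cells, was 7.49 and 9.57 in melan-a and 5.07, 8.53 and 9.73 in 4C11-, lowest in 4C11- replicate 1 of the 5 libraries.

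Gene expression differed widely between the lines. At an adjusted p under 0.05 in limma, 1940 of 14272 genes differed (13.6%), 1077 higher in 4C11- (7.55%) and 863 lower (6.05%), while 3732 had an unadjusted p under 0.05. The median difference over all genes was -0.07, or -0.08 with absent genes at their bound. Without overlap between the 5 libraries, 2554 genes were higher (17.9%) and 2674 lower (18.7%). Without melan-a replicate 2 the counts past the threshold were 1176 higher and 580 lower, and without melan-a replicate 3 they were 960 and 731. Without 4C11- replicate 1 they were 1018 and 1080, and with both 4C11- replicate 1 and melan-a replicate 2 left out they were 1222 and 872. Among single libraries left out, 4C11- replicate 2 moved the number of lower genes most, to 554. At 3 reads or fewer in both melan-a libraries and above in all 4C11- libraries were 519 genes, and the reverse held for 139. The authors' filter required expression in 4 libraries, so genes expressed in only 1 of the lines are missing from these counts, and those shared with 4C are not.

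**Figure D1:**
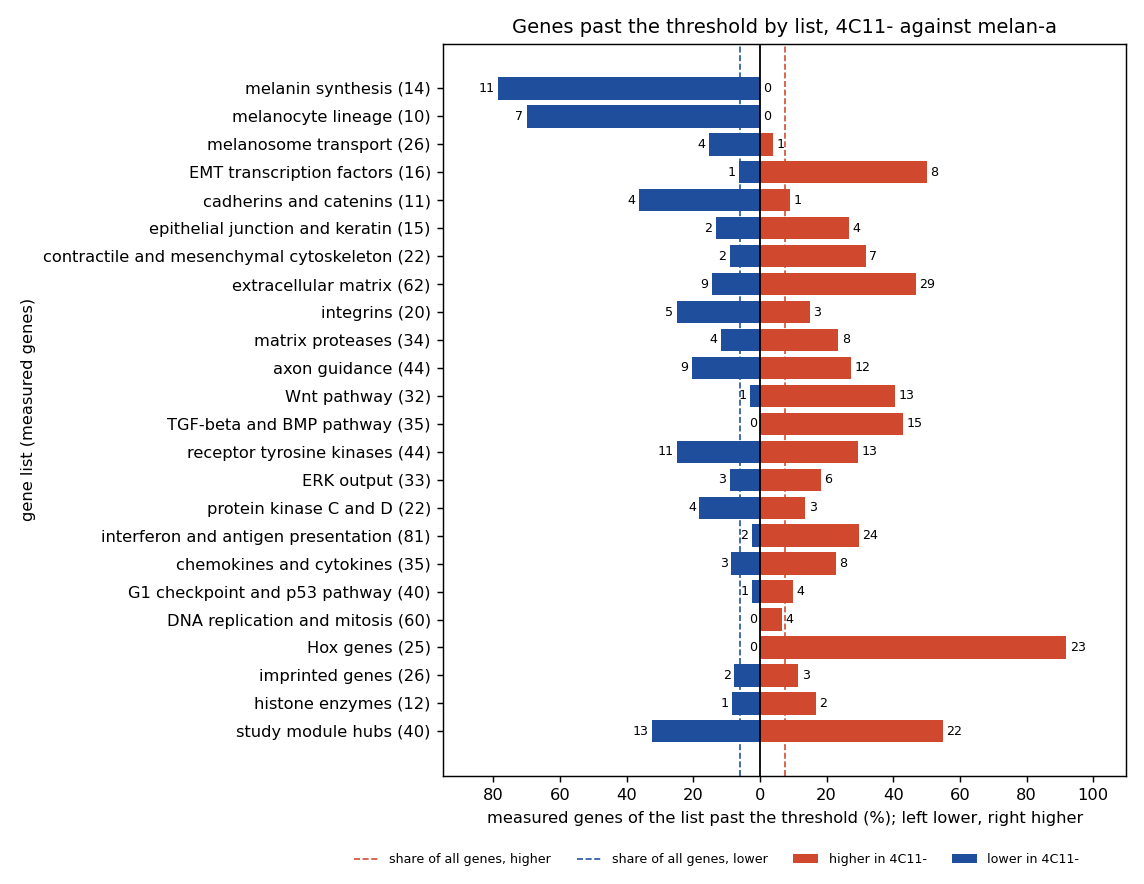
Share of the measured genes of each list that passed the threshold in 4C11- against melan-a, lower to the left and higher to the right, with the number of genes at each bar and dashed lines at the share of all genes (7.55% higher, 6.05% lower). Of the lists, melanin synthesis has 11 genes lower and 0 higher, and Hox genes have 23 higher and 0 lower. Of the measured Hox genes, 23 were absent from melan-a and so could not be lower in 4C11-.

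Melanin synthesis was low in 4C11-. Of 14 of 15 listed genes measured, 11 fell, 0 rose and 3 did not pass (78.6% past the threshold against 13.6% of all genes). The median difference was -4.94 (-3.92 with absent genes at their bound) against -0.07 over all genes. Tyrp1, which encodes a melanosomal enzyme, was 8.51 and 12.63 in melan-a and 0.69, -3.15 and -3.15 in 4C11-. The 4C11- values all lay below those of melan-a, where replicate 3 was the higher, and Tyrp1 fell by 12.44 (standard error 1.20, adjusted p 2.4e-05). Dct, the gene of dopachrome tautomerase, was 9.04 and 10.81 in melan-a and -0.24, -2.58 and -2.01 in 4C11-, and it fell by 11.53 (standard error 0.92, adjusted p 5.4e-06). Tyr, the gene of the enzyme that starts the pathway, was already low in melan-a, at -0.25 and 1.29, and was absent from 4C11-. It fell by at least 2.09 (adjusted p 9.3e-04). Melan-a replicate 2 held 3 reads at most, so without melan-a replicate 3 Tyr was absent from both lines and no bound can be given. In 4C11+, Tyr was higher than in melan-a by 8.00 (adjusted p 5.4e-06), in a comparison that shares the melan-a libraries and in which 15.9% of all genes passed.

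Genes of other melanosome proteins were also lower, with exceptions. Mlana, a melanosome membrane protein, was 6.73 and 8.40 in melan-a and 0.06, -3.15 and -2.44 in 4C11-, and it fell by 9.41. Slc45a2, a transporter of the melanosome membrane, fell by 7.83, and Gpr143, a receptor of that membrane, fell by at least 4.61. Oca2, which encodes a channel of the melanosome membrane, fell by at least 3.89 (adjusted p 0.00452), with melan-a values of 0.06 and 4.56, and the fall was at least 6.14 without melan-a replicate 2 and at least 1.64 without melan-a replicate 3. Pmel, the gene of the fibrils on which melanin is laid down, was 2.41 and 2.95 in melan-a and 2.54, 0.96 and 0.60 in 4C11-, so it was low in both lines and the libraries overlapped. Its difference of -1.32 did not pass (adjusted p 0.163, and 0.0148 without 4C11- replicate 1). The cystine transporter gene Slc7a11 did not pass (adjusted p 0.325), with 3.33 and 6.87 in melan-a and 2.92, 4.13 and 4.15 in 4C11-. Its adjusted p was 0.00444 without melan-a replicate 2. Atp7a, which encodes a copper transporter, was 4.80 and 4.54 in melan-a and 3.79, 5.21 and 5.78 in 4C11- and did not pass (adjusted p 0.817).

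The start regions of these genes are shown because the list moved together. In the promoter table of RefSeq (build GRCm38.p6, 250 bases before to 50 after each start), 10 of the 14 measured melanin genes were found, and Pmel, Mlana, Gpr143 and Slc45a2 were not. The letters CATGTG, read on both strands, are the core of the element known as the M-box, and 8 of the 10 genes held them, against 15.9% of all 27025 genes in the table, 10.4% of the 9928 deposited genes in it, and 14.2% of all 32851 promoters. They were Tyr, Tyrp1, Dct, Tspan10, Oca2, Slc24a5, Slc7a11 and Trpm1, of which Slc7a11 did not pass the threshold, and Gpnmb and Atp7a held none. The AP-1 letters TGAGTCA, on both strands, were in 1 of 10 genes (Gpnmb), against 5.95% of all genes in the table, 4.45% of the deposited genes in it, and 5.20% of all promoters. A match is a description of the letters and not a test of binding. Capitals mark CATGTG or its reverse complement in stretches written 5' to 3' on the strand of the gene, which lie at chr4:80834155-80834184, plus strand (Tyrp1), chr14:118052351-118052496, minus strand (Dct), chr7:87493513-87493573, minus strand (Tyr), chr7:64153654-64153739, plus strand (Trpm1) and chr2:125068074-125068126, plus strand (Slc24a5).
Tyrp1: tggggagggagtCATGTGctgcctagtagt
Dct: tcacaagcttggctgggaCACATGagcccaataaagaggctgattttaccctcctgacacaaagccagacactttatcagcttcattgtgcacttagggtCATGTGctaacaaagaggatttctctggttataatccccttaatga
Tyr: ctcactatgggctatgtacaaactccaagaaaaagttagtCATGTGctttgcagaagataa
Trpm1: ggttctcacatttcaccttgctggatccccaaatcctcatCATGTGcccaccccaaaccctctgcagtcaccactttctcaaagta
Slc24a5: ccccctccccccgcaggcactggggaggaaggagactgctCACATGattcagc

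Most of the measured regulators of the lineage fell. Of 10 of 15 listed genes measured, 7 fell and 0 rose (70% against 13.6% of all genes), with a median of -3.91. Mitf, the gene of the main melanocyte transcription factor, was 7.73 and 7.97 in melan-a and -0.70, 1.14 and -0.70 in 4C11-. It fell by 7.94 (standard error 0.79, adjusted p 3.2e-05), with every 4C11- library far below both melan-a libraries. Sox10, a neural crest transcription factor, was 9.05 and 7.88 in melan-a and 0.48, 0.06 and -2.01 in 4C11-, and it fell by 8.95. Kit, the receptor for stem cell factor, was 6.92 and 6.18 in melan-a and absent from 4C11-, and it fell by at least 8.12. Mc1r, the melanocortin receptor, fell by at least 7.85, and the neuregulin receptor gene Erbb3 fell by 5.18.

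Pax3, an earlier regulator of the lineage, fell but was retained. It was 7.94 and 6.94 in melan-a and 5.49, 5.10 and 5.31 in 4C11-, a fall of 2.14 (adjusted p 9.3e-04) that left each 4C11- library above 5 log2 CPM. Tfap2a, which encodes AP-2 alpha, fell by 2.64. Ets1 was 8.70 and 8.09 in melan-a and 8.06, 8.34 and 8.14 in 4C11-, with overlap between the lines, and did not pass (adjusted p 0.692). Neither Sox5 (difference -1.48, adjusted p 0.0584) nor Lef1 (1.08, adjusted p 0.294) passed, and the difference of Lef1 was 1.88 without melan-a replicate 2 and 0.28 without melan-a replicate 3.

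**Figure D2:**
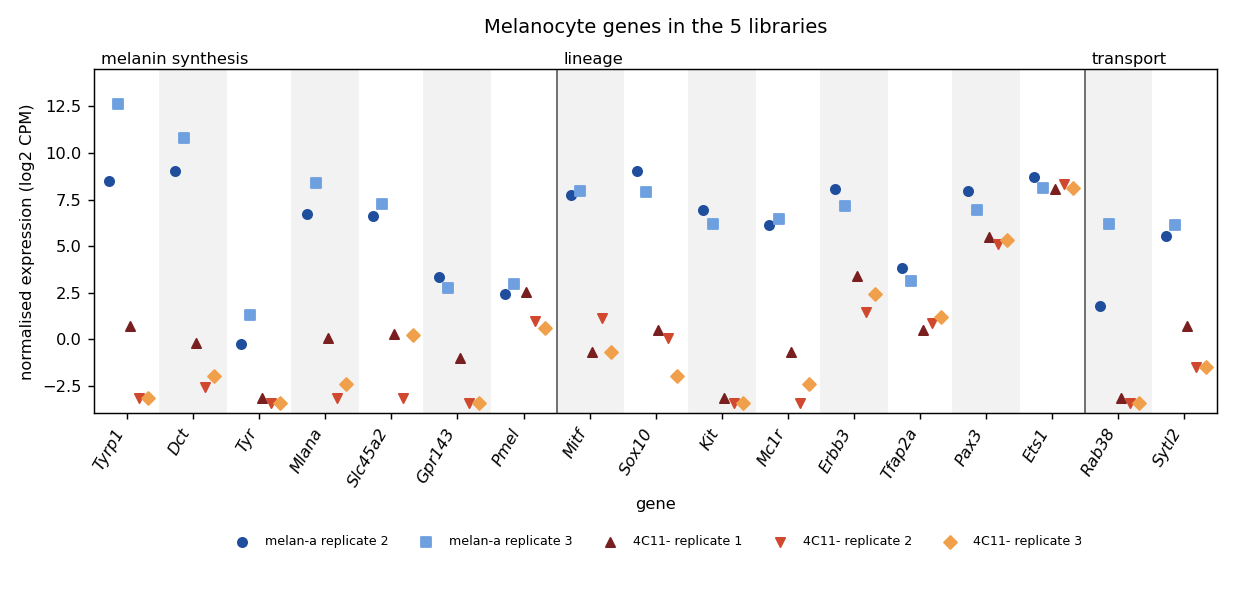
Normalised expression (log2 CPM) of 17 melanocyte genes in the 2 melan-a and 3 4C11- libraries, 1 point per library. The 4C11- points of Tyrp1, Dct, Mlana, Sox10 and Mitf lie below both melan-a points, those of Ets1 and Pmel overlap them, and Pax3 stays above 5 in every 4C11- library.

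Genes of melanosome transport were read as a list of their own. Of 26 of 27 listed genes measured, 4 fell and 1 rose (19.2% against 13.6% of all genes), with a median of -0.65. Without melan-a replicate 2, melan-a replicate 3, 4C11- replicate 2 or 4C11- replicate 3, 0 rose. Rab38, a small GTPase that carries enzymes to melanosomes, was 1.77 and 6.18 in melan-a and absent from 4C11-, and it fell by at least 5.55, or at least 3.34 without melan-a replicate 3. Sytl2, a RAB27 effector, fell by 6.61, and Lyst, the lysosomal trafficking regulator, fell by 2.60 (adjusted p 0.0121, and 0.0847 without melan-a replicate 2). The 16 measured genes of the BLOC and AP-3 complexes had 1 fall (6.25%, against 6.05% of all genes lower), that of Ap3s1, by 1.12 (adjusted p 0.0265, and 0.161 without melan-a replicate 3 and 0.0679 without 4C11- replicate 2). The rise was that of the kinesin gene Kif13a, by 0.83 (adjusted p 0.0432, and 0.0620 without melan-a replicate 2, 0.181 without melan-a replicate 3, 0.128 without 4C11- replicate 2 and 0.0993 without 4C11- replicate 3).

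Markers of cell types were read as a check of the labels, and their part in the result was not tested. Of 10 melanocyte markers 9 were measured, of which 8 fell, and their summed level was 1965 and 9185 CPM in melan-a and 12.8, 5.87 and 4.27 CPM in 4C11-. Melan-a thus carried the marker genes its label gives, with Tyrp1 the most abundant on average and Tyr and Pmel low. For the fibroblast markers, 5 of 10 were measured and 4 rose. Col1a2, Dcn, Lum, Thy1 and Fap were not among the measured genes. The summed level of the 5 was 206 and 26.2 CPM in melan-a and 2230, 1969 and 2018 CPM in 4C11-. Col1a1 was the most abundant in 4C11-. With melan-a replicate 2 left out, 1 fell. Of the Schwann cell markers 7 of 10 were measured, 3 fell and 2 rose, and the sum was 884 and 305 CPM in melan-a and 155, 122 and 105 CPM in 4C11-. The rises were 1 without any 1 of the 5 libraries. S100b, a calcium-binding protein gene of melanocytes and Schwann cells, fell by 6.26. The endothelial list had 3 of 10 measured and 2 higher, Cdh5 and Flt1, with a sum of 30.3 and 5.62 CPM in melan-a and 137, 191 and 104 CPM in 4C11-. Of the macrophage markers 3 of 10 were measured and 0 passed in limma, with a sum of 96.8 and 12.7 CPM in melan-a and 44.7, 10.7 and 15.2 CPM in 4C11-, highest in melan-a replicate 2 through Cd68. In total 1 fell without melan-a replicate 3. Only Krt10 of 10 keratinocyte markers was measured, at a sum of 2.80 and 2.05 CPM in melan-a and 1.20, 2.20 and 1.34 CPM in 4C11-, and it did not pass. At an unadjusted p under 0.05, 1 macrophage and 0 keratinocyte markers differed.

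Among 14 measured transcription factors that promote the mesenchymal state, 8 rose in 4C11-, 1 fell and 5 did not pass. Of 16 of 23 listed genes measured, 8 rose and 1 fell (56.2% against 13.6% of all genes). The median was 2.13 (0.90 with absent genes at their bound). When melan-a replicate 3 was left out, 2 fell. Twist2 was -3.15 and -2.58 in melan-a and 5.17, 4.87 and 4.89 in 4C11-, absent from the former, and rose by at least 5.37 (adjusted p 2.9e-07). Snai1 was -3.15 and -1.42 in melan-a and 5.99, 5.16 and 5.13 in 4C11-, and it rose by at least 5.82. Prrx2 rose by at least 5.44, Twist1 rose by at least 3.61, and Sox9 rose by 5.22. The 1 fall was that of Snai2, the Snail family member that melanocytes express. It was 3.13 and 3.18 in melan-a and 1.13, -2.01 and -0.70 in 4C11-, and it fell by 3.68 (adjusted p 0.00925). Both measured keepers of the epithelial state did not pass, with a median of -0.51.

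N-cadherin, abundant in melan-a, was absent from 4C11-. Cdh2, the gene of N-cadherin, was 7.41 and 8.28 in melan-a and absent from 4C11-, and it fell by at least 9.41 (adjusted p 5.9e-08). Cdh19, a cadherin of the neural crest lineage, fell by at least 6.55, and the gene of alpha-catenin, Ctnna1, fell by 1.22. Cdh1, the gene of E-cadherin, was 1.21 and 0.06 in melan-a and 1.35, 1.36 and 0.42 in 4C11-, low in both lines, and did not pass (adjusted p 0.761). The 1 cadherin that rose was Cdh5, known from endothelium, at -3.15 and -1.42 in melan-a and 6.73, 7.43 and 6.54 in 4C11-, which rose by at least 7.29. Cdh5 was also higher in 4C11- than in 4C by 5.65 (adjusted p 0.0135), in a comparison in which 1.67% of all genes passed. Of 11 of 29 cadherins and catenins measured, 4 fell and 1 rose (45.5% against 13.6% of all genes), with a median of -0.30. Without melan-a replicate 2, 2 rose.

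Epithelial genes did not fall as a group. Of 15 of 33 junction and keratin genes measured, 4 rose and 2 fell (40% against 13.6% of all genes), with a median of 0.35. With melan-a replicate 3, 4C11- replicate 2 or 4C11- replicate 3 left out, 1 fell. Keratin 18 (Krt18), a filament of simple epithelia, was -0.25 and -0.70 in melan-a and 8.18, 7.64 and 8.08 in 4C11-, and it rose by at least 8.36. Krt7 rose by at least 5.88, and Pkp1, a desmosome protein gene, rose by at least 4.38.

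The smooth muscle genes Acta2, Myl9 and Tagln were higher in 4C11-, and vimentin was lower. Acta2, the gene of smooth muscle actin, was -0.72 and -2.58 in melan-a and 8.61, 8.35 and 8.44 in 4C11-. It was absent from melan-a and rose by at least 8.86 (adjusted p 3.0e-06). Myosin light chain 9 (Myl9) was -3.15 and -2.58 in melan-a and 5.81, 4.72 and 4.21 in 4C11-, and it rose by at least 5.31, and was higher than in 4C by 5.57 (adjusted p 4.8e-04). Tagln, which encodes an actin-binding protein, rose by at least 4.51, and S100a6, a calcium-binding protein gene, rose by 6.90. Vimentin (Vim), the filament of mesenchymal cells, was 11.91 and 10.97 in melan-a and 10.15, 10.17 and 9.97 in 4C11-, so it was abundant in each library, and it fell by 1.34 (adjusted p 0.00534), or 0.87 without melan-a replicate 2. Of 22 of 25 genes measured, 7 rose and 2 fell (40.9% against 13.6% of all genes), with a median of 0.73. In total 13 rose without melan-a replicate 2. When melan-a replicate 3, 4C11- replicate 2 or 4C11- replicate 3 was left out, 1 fell. Melan-a replicate 2 was higher than replicate 3 in 19 of these 22 genes.

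More matrix genes rose than fell in 4C11-, among them Col1a1 and Col3a1, while Col1a2, Dcn and Lum were not among the measured genes. Of 62 of 86 listed genes measured, 29 rose and 9 fell (61.3% against 13.6% of all genes). The median was 1.43 (1.28 with absent genes at their bound). Without 4C11- replicate 2, 5 fell. Col1a1, a chain of type I collagen, was 1.35 and 1.48 in melan-a and 10.74, 10.42 and 10.55 in 4C11-. Its libraries were close together within each line, and it rose by 9.15 (standard error 0.26, adjusted p 5.5e-09). Col3a1 rose by at least 5.81, Col6a3, a chain of microfibrillar collagen VI, rose by 8.53, and Bgn, the gene of the proteoglycan biglycan, rose by 8.42. Lamc3, a laminin chain, was -0.72 and -1.42 in melan-a and 8.70, 8.52 and 7.67 in 4C11-, and it rose by at least 8.69. Loxl1, which encodes an enzyme that cross-links elastin, rose by 6.11, with melan-a at 2.49 and -1.42. Of 27 measured collagen genes 14 rose and 6 fell, and 3 fell without melan-a replicate 2 or 4C11- replicate 2. Among the falls, Col15a1 fell by at least 5.32 and Col9a1 fell by 6.83. Col9a3, at 7.07 and 3.29 in melan-a, fell by 5.10, or 3.21 without melan-a replicate 2. Col5a3, a chain of the fibrillar collagen V, fell by 3.30 (adjusted p 0.0398, and 0.101 without melan-a replicate 2, 0.151 without melan-a replicate 3, 0.126 without 4C11- replicate 2 and 0.102 without 4C11- replicate 3). Nid1, a basement membrane linker, fell by at least 4.59.

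For 3 genes of matrix proteins and receptors, the call depended on the libraries used. Fibronectin (Fn1) was 10.97 and 8.81 in melan-a and 9.97, 8.99 and 9.27 in 4C11-, between the melan-a libraries, and did not pass (adjusted p 0.613, and 0.0263 without melan-a replicate 3). Tnc did not pass with all libraries (adjusted p 0.0853), and its adjusted p was 6.1e-07 without melan-a replicate 2. Pdgfrb rose by 3.96 (adjusted p 0.0492), or 6.96 without melan-a replicate 2 and 0.95 without melan-a replicate 3, and its adjusted p was 0.237 without melan-a replicate 3, 0.0770 without 4C11- replicate 1, 0.128 without 4C11- replicate 2 and 0.0749 without 4C11- replicate 3.

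**Figure D3:**
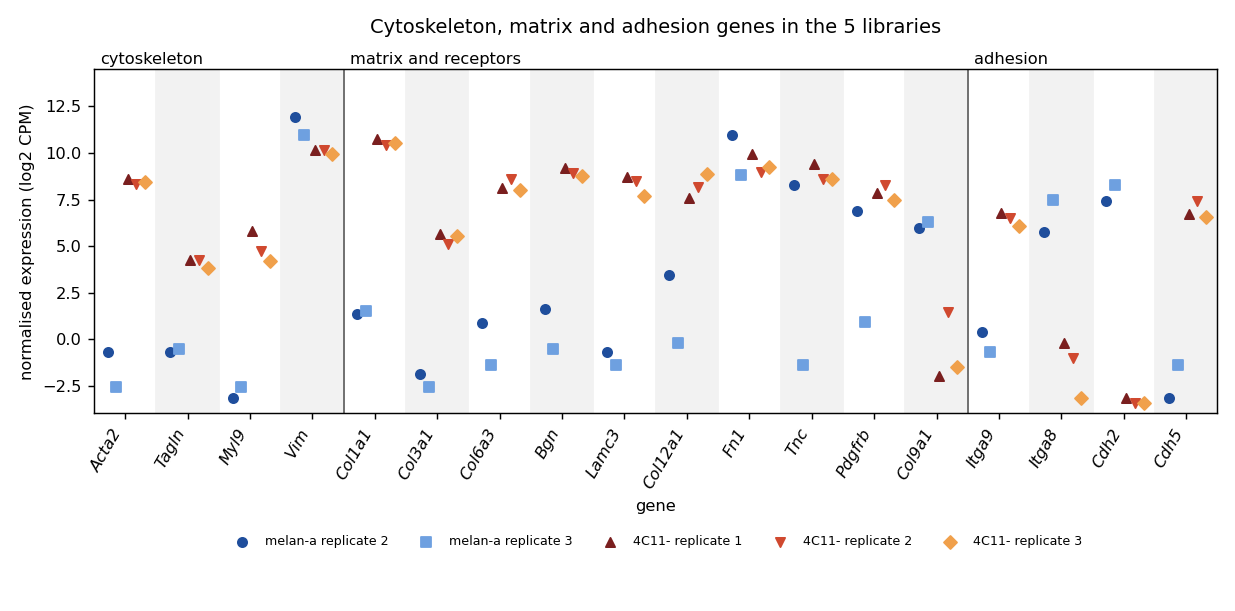
Normalised expression (log2 CPM) of 18 cytoskeleton, matrix and adhesion genes in the 5 libraries, 1 point per library. Col1a1, Acta2 and Lamc3 are low in both melan-a libraries, while Tnc and Pdgfrb are high in melan-a replicate 2 and low in replicate 3.

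Integrins, the receptors for matrix, changed in both directions. Of 20 of 25 subunit genes measured, 5 fell and 3 rose (40% against 13.6% of all genes), with a median of -0.20. With melan-a replicate 2 left out, 3 fell. Itga9, a subunit for tenascin and other ligands, was 0.40 and -0.70 in melan-a and 6.78, 6.52 and 6.09 in 4C11-, and it rose by 6.61. Itga3, a laminin receptor subunit, rose by 1.64. Itga8 was 5.75 and 7.48 in melan-a and -0.24, -1.01 and -3.15 in 4C11-, and it fell by 8.08. Itgb3, the partner of the alpha V subunit, fell by 3.46, and Itga6, a laminin receptor subunit, fell by 2.99. Of 34 of 48 genes of matrix proteases and their inhibitors measured, 8 rose and 4 fell (35.3% against 13.6% of all genes). The median was -0.19. In total 2 fell without melan-a replicate 3, 4C11- replicate 2 or 4C11- replicate 3. Timp1, an inhibitor of metalloproteases, was -3.15 and -2.58 in melan-a and 5.22, 4.73 and 4.55 in 4C11-, and it rose by at least 5.23. Mmp11 rose by 3.13, and the metalloprotease gene Adamts9 fell by 2.63, although 4C11- was above 4C by 3.84 (adjusted p 7.0e-04).

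Guidance cues and their receptors, which steer cells and axons, changed in both directions. Of 44 of 68 listed genes measured, 12 rose and 9 fell (47.7% against 13.6% of all genes), with a median of 0.08. Ntn1, the gene of the secreted cue netrin 1, was -1.90 and -0.54 in melan-a and 7.57, 7.54 and 6.85 in 4C11-, and it rose by at least 7.71. Its receptor gene Unc5c was 2.85 and 7.54 in melan-a and absent from 4C11-, and it fell by at least 6.77, or at least 4.43 without melan-a replicate 3. Slit3, a ligand of ROBO receptors, rose by at least 5.57. Among ephrins and their receptors, Epha8 rose by at least 7.49 and Efnb1 rose by 4.37, while Epha4 fell by at least 4.71 and was also lower than in 4C by at least 3.44 (adjusted p 9.9e-04). The semaphorin gene Sema6d fell by at least 5.21.

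Most measured Wnt ligands were higher in 4C11-. Of 32 of 54 listed genes measured, 13 rose and 1 fell (43.8% against 13.6% of all genes), with a median of 0.61 (0.41 with absent genes at their bound). When melan-a replicate 3 or 4C11- replicate 3 was left out, 2 fell. Without 4C11- replicate 1, 3 fell. Of 9 measured ligands 7 rose and 1 fell, and the rises were 5 without melan-a replicate 2. Of 12 receptors 1 rose (8.33%, against 7.55% of all genes). Of 7 targets 3 rose and 4 did not pass, and of 4 inhibitors 2 rose and 2 did not pass. Wnt6 was -3.15 and -2.58 in melan-a and 6.53, 6.34 and 5.61 in 4C11-, and it rose by at least 6.56 (adjusted p 7.8e-08). Wnt4 rose by 6.36, Wnt11 rose by at least 4.66 and Wnt7b rose by at least 3.78. Axin2, a direct target and inhibitor of the beta-catenin branch, was -1.90 and 0.22 in melan-a and 4.55, 4.65 and 4.01 in 4C11-, and it rose by 5.24. The inhibitor gene Wif1, whose product binds secreted Wnt proteins, was 0.06 and -0.70 in melan-a and 7.51, 7.17 and 7.45 in 4C11-, and it rose by 7.70. Wnt5a, a ligand of the branch without beta-catenin, was -0.25 and 4.95 in melan-a, higher in replicate 3, and absent from 4C11-. It fell by at least 3.92 (adjusted p 0.00541), or at least 6.52 without melan-a replicate 2. Melan-a replicate 2 held 3 reads at most, so without melan-a replicate 3 Wnt5a was absent from both lines and no bound can be given.

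The TGF-beta and BMP pathway had rises and no falls. Of 35 of 51 listed genes measured, 15 rose and 0 fell in limma (42.9% against 13.6% of all genes). The median was 1.42 (1.40 with absent genes at their bound). With array weights 10 of the list passed, and with only the 5 libraries 7 did. The number lower at an unadjusted p under 0.05 was 1. Bmp4, a ligand, was -0.72 and -1.42 in melan-a and 5.93, 4.69 and 5.01 in 4C11-, and it rose by at least 5.60. Inhbb, a subunit of activin, was -3.15 and -2.58 in melan-a and 6.38, 5.10 and 5.11 in 4C11-, and it rose by at least 5.92. Acvrl1, a receptor, rose by at least 5.26. Of 8 measured antagonists 6 rose, among them Nog, which binds BMPs, by at least 3.84. The BMP target Id1, an inhibitor of differentiation factors, was 4.43 and 4.71 in melan-a and 8.96, 7.42 and 8.03 in 4C11-, and it rose by 3.56 (adjusted p 7.0e-04).

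Receptor tyrosine kinases and their ligands changed in both directions. Of 44 of 69 receptors and ligands measured, 13 rose and 11 fell (54.5% against 13.6% of all genes). The median was 0.36 (0.28 with absent genes at their bound). With melan-a replicate 2 or 4C11- replicate 3 left out, 7 fell. Egfr, the receptor of epidermal growth factor, was -3.15 and -2.58 in melan-a and 4.29, 5.13 and 4.80 in 4C11-, and it rose by at least 5.13. Met, the receptor of hepatocyte growth factor, was 7.24 and 7.48 in melan-a and 2.72, 3.42 and 3.65 in 4C11-, and it fell by 4.10 and was below 4C by 2.14 (adjusted p 0.00280). Among ligands, Igf2 was 0.87 and -0.24 in melan-a and 8.72, 8.83 and 8.50 in 4C11-. It rose by 8.37 and lay above 4C by 4.36 (adjusted p 6.7e-04). Kitl, the ligand of KIT, was -3.15 and -0.24 in melan-a and 3.06, 5.19 and 5.54 in 4C11-, and rose by 6.29, opposite to its receptor. Pros1, a ligand of the TAM receptors, was 5.17 and 4.24 in melan-a and absent from 4C11-, and it fell by at least 6.27. Vegfc, a ligand for lymphatic endothelium, fell by at least 5.90, and the VEGF receptor gene Flt1 rose by at least 3.89.

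Downstream of these receptors, genes that respond to ERK signalling showed no common direction. Of 33 of 34 measured, 6 rose and 3 fell (27.3% against 13.6% of all genes), with a median of 0.40. In total 2 rose without melan-a replicate 3. When 4C11- replicate 1 or 4C11- replicate 2 was left out, 3 rose. Without 4C11- replicate 2, 1 fell. Dusp9, a phosphatase that acts on ERK, was -3.15 and -0.70 in melan-a and 6.35, 6.20 and 5.66 in 4C11-, and it rose by at least 6.47, and was above 4C by 4.38 (adjusted p 0.0114). Junb, an AP-1 subunit, rose by 2.62 (adjusted p 0.00761, and 0.0755 without melan-a replicate 3), or 1.70 without melan-a replicate 3. Epha2, a receptor gene that responds to ERK, rose by 1.24 (adjusted p 0.00999, and 0.0674 without melan-a replicate 3). Spry2, a feedback inhibitor, fell by 2.02 (adjusted p 0.0159, and 0.0974 without melan-a replicate 3 and 0.0639 without 4C11- replicate 2).

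Protein kinase C and D genes were listed with other genes that encode a C1 domain, of which not all bind phorbol esters. Of 22 of 30 measured, 4 fell and 3 rose (31.8% against 13.6% of all genes), with a median of -0.19. With melan-a replicate 3 or 4C11- replicate 3 left out, 1 rose. The 8 measured isoforms that bind phorbol esters had 1 rise and 1 fall, against 7.55% and 6.05% of all genes. The rise was lost without melan-a replicate 2, melan-a replicate 3, 4C11- replicate 1 or 4C11- replicate 3, and 2 fell without 4C11- replicate 1. Prkcq, the theta isoform, was 4.61 and 6.84 in melan-a and absent from 4C11-, and it fell by at least 7.29. Rasgrp3, an exchange factor that binds diacylglycerol and phorbol esters, was 3.57 and 4.16 in melan-a and 0.06, -3.15 and -1.50 in 4C11-, and it fell by 5.40. Prkca, the alpha isoform, was 5.92 and 4.90 in melan-a and 4.87, 5.86 and 5.92 in 4C11-, with overlap, and did not pass (adjusted p 0.861). Prkcd, the delta isoform, did not pass either (adjusted p 0.831). Chn1, the gene of the phorbol ester receptor chimaerin 1, rose by 5.30.

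Hox genes, which set position along the body axis, were absent from melan-a with 2 exceptions and present in 4C11-. Of 25 of 39 genes measured, 23 rose and 0 fell, and 23 were absent from melan-a. The median was 4.86 (2.57 with absent genes at their bound), and no library of 4C11- overlapped melan-a in any of the 25. Of all genes, 7.55% rose past the threshold and 17.9% were higher without overlap. The 23 genes absent from melan-a passed the authors' filter through other lines, so they could rise but not fall. By cluster, 9 of 10 genes of cluster A, 5 of 6 of cluster B and 9 of 9 of cluster C rose, and 0 of 9 of cluster D were among the measured genes. Hoxa10, active toward the posterior end, was -1.90 and -2.58 in melan-a and 5.56, 5.45 and 5.85 in 4C11-, and it rose by at least 6.01 (adjusted p 7.3e-08). Hoxb13, the most posterior gene of its cluster, was -0.72 and -2.58 in melan-a and 6.40, 5.65 and 5.60 in 4C11-, and it rose by at least 6.28. Hoxc9 rose by at least 4.83 and Hoxc11 rose by at least 4.60. Hoxb4 did not pass, at 1.77 and 1.59 in melan-a and 3.11, 2.52 and 1.87 in 4C11- (adjusted p 0.341). In 4C11+, compared with the same melan-a libraries, Hoxa10 was higher by at least 6.28 (adjusted p 9.0e-08), and Hoxb4 was lower by at least 1.65 (adjusted p 2.6e-04). Hox clusters hold antisense and overlapping transcripts, which the stranded protocol separates by strand only, so the share of each is uncertain.

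**Figure D4:**
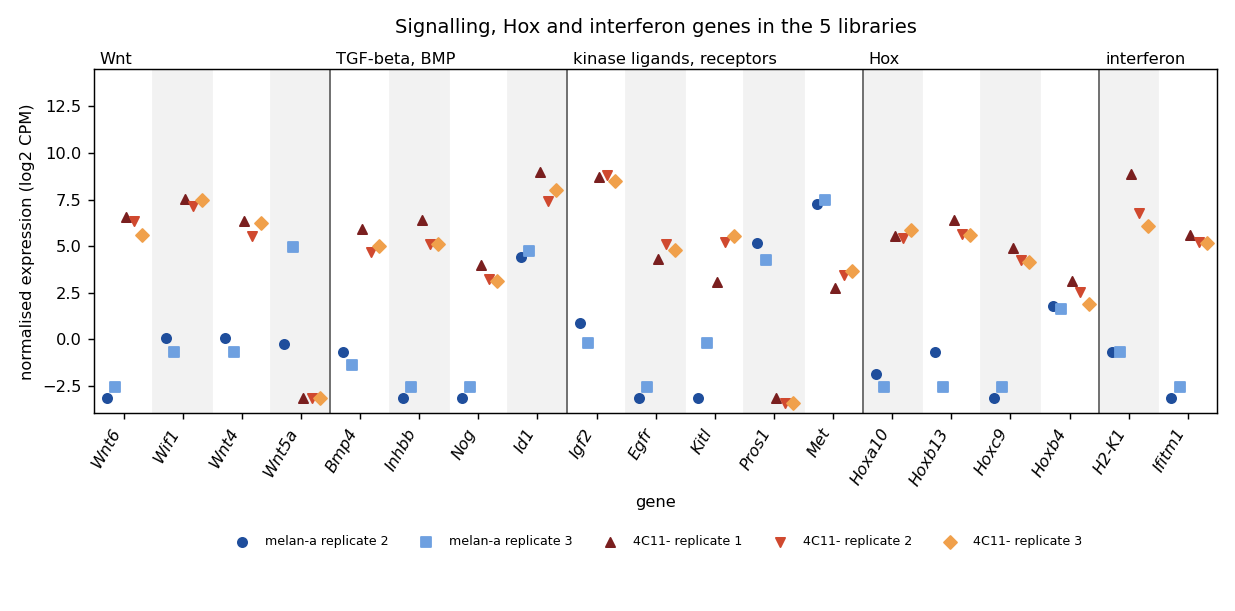
Normalised expression (log2 CPM) of 19 signalling, Hox and interferon genes in the 5 libraries, 1 point per library. Wnt6, Bmp4, Igf2, Egfr, Hoxa10, Hoxb13 and Hoxc9 are higher in every 4C11- library than in both melan-a libraries, and Wnt5a, Pros1 and Met are lower.

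More interferon and antigen presentation genes rose than fell, and most did not pass. Of 81 of 93 genes measured, 24 rose and 2 fell (32.1% against 13.6% of all genes), with a median of 1.30. In total 1 fell without melan-a replicate 2. Ifitm1, which encodes an antiviral membrane protein, was -3.15 and -2.58 in melan-a and 5.57, 5.22 and 5.19 in 4C11-, and it rose by at least 5.72. H2-K1, a class I heavy chain, was -0.72 and -0.70 in melan-a and 8.84, 6.79 and 6.10 in 4C11-, highest in replicate 1, and it rose by at least 7.64. H2-Q4, of the same family, rose by at least 4.43, and since class I genes are near-identical copies that vary between strains, their separate values are uncertain. Sp100, a nuclear body protein gene, rose by at least 4.67, and Irf8, a transcription factor of the response, rose by at least 2.83. Against the list, Mx1, an antiviral GTPase gene of chromosome 16, was 5.97 and 2.59 in melan-a and -1.01, -3.15 and -3.15 in 4C11-, and it fell by at least 5.85. Ifnar2, a subunit of the type I interferon receptor on the same chromosome, fell by 1.58 (adjusted p 0.00577, and 0.0536 without melan-a replicate 2). In 63 of the 81 genes melan-a replicate 2 was above replicate 3, and 4C11- replicate 1 was above its group mean by a median of 0.80.

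Some of the measured chemokine and cytokine genes rose. Of 35 of 70 genes measured, 8 rose and 3 fell (31.4% against 13.6% of all genes). The median was 0.12 (0.06 with absent genes at their bound). Ccl2, which attracts monocytes, was -1.90 and -2.58 in melan-a and 5.20, 4.71 and 4.46 in 4C11-, and it rose by at least 5.19. Il1r1, the interleukin 1 receptor, rose by at least 5.48, and the chemokine gene Cxcl14 rose by at least 4.74. Il10rb, a receptor subunit encoded on chromosome 16, fell by 2.63.

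The counts of cell cycle genes depended on melan-a replicate 3. Of 40 of 44 genes of the G1 checkpoint and the p53 pathway measured, 4 rose and 1 fell (12.5% against 13.6% of all genes), with a median of 0.21. When melan-a replicate 3 was left out, 7 rose. Cdkn1b, the inhibitor p27, was 7.88 and 7.52 in melan-a and 6.42, 6.33 and 6.35 in 4C11-, and it fell by 1.33, while the cyclin gene Ccnd2 rose by 1.54. Cdkn2a, which encodes the p16 and ARF proteins, was 7.36 and 6.59 in melan-a and 7.90, 7.13 and 6.87 in 4C11- and did not pass (adjusted p 0.761). In 4C11+ it was lower than in melan-a by at least 6.95 (adjusted p 1.2e-06). Gadd45g, a stress response gene, rose by 3.01, and the death receptor gene Fas rose by at least 2.46. Of 60 of 60 genes of replication and mitosis, 4 rose and 0 fell in limma. That is 6.67%, against 7.55% of all genes higher and 13.6% in either direction. The median of the list was 0.42, and 0 were lower at an unadjusted p under 0.05. Without melan-a replicate 2 or 4C11- replicate 2, 2 rose. With melan-a replicate 3 left out, 13 rose. Without that library 1691 of all 14272 genes passed, so these lists then held larger shares than all genes. Mcm6, a helicase subunit, rose by 1.63, and Prim2, a primase subunit, rose by 1.07. Melan-a replicate 2 was below replicate 3 in 57 of the 60 genes, and 4C11- replicate 1 was the lowest 4C11- library in 32.

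Histone-modifying enzymes that the study also measured by qPCR were read as a list. Of these 12 genes 2 rose and 1 fell, so 3 of 12 passed against 13.6% of all genes, with a median of 0.39 against -0.07. With the replicate block, without the mean-variance trend, with array weights or at a minimum difference of 1, 1 of the 12 passed. With only the 5 libraries 0 passed. In total 1 rose without melan-a replicate 2 or 4C11- replicate 2. When melan-a replicate 2, 4C11- replicate 1 or 4C11- replicate 2 was left out, 0 fell. The deacetylase gene Hdac11 was 2.85 and -2.58 in melan-a and 5.00, 4.40 and 4.29 in 4C11-, without overlap and lowest in melan-a replicate 3, and it rose by 4.43 (adjusted p 0.0192). The rise was 7.15 without melan-a replicate 2 and 1.71 without melan-a replicate 3. The acetyltransferase gene Kat2a rose by 0.89 (adjusted p 0.0338, and 0.186 without melan-a replicate 2, 0.0585 without 4C11- replicate 1 and 0.109 without 4C11- replicate 2). Kdm2a, a demethylase gene, fell by 0.78 (adjusted p 0.0437, and 0.123 without melan-a replicate 2, 0.118 without melan-a replicate 3, 0.0785 without 4C11- replicate 1 and 0.0792 without 4C11- replicate 2). Of the acetyltransferase genes that did not pass, Hat1 had a difference of 0.88 (adjusted p 0.130), Ep300 one of 0.38 (adjusted p 0.599) and Kat5 one of 0.03 (adjusted p 0.971). The deacetylase genes Hdac1, Hdac3 and Hdac6 had differences of 0.31 (adjusted p 0.451), -0.73 (adjusted p 0.0820) and -0.18 (adjusted p 0.754). Among the methyltransferase genes, Nsd1 had 0.68 (adjusted p 0.334) and Setd2 0.41 (adjusted p 0.722), and the demethylase gene Kdm2b had 0.46 (adjusted p 0.259). With a library left out, Hat1 had an adjusted p of 0.0193 without melan-a replicate 3, Hdac3 of 0.0422 without melan-a replicate 3 and Nsd1 of 0.0164 without 4C11- replicate 1. The differences then ranged from 0.30 to 1.46 for Hat1, 0.14 to 0.48 for Hdac1, -1.02 to -0.44 for Hdac3 and 0.40 to 1.16 for Nsd1.

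Of the 40 hub genes that the study took from its turquoise, salmon, red and midnight blue modules, 22 rose and 13 fell, with a median of 1.35 (1.32 with absent genes at their bound). The study chose them on these samples, so the share is no independent support. Trabd2b, which encodes a membrane protease, was -3.15 and -2.58 in melan-a and 3.93, 3.93 and 4.46 in 4C11-, and it rose by at least 4.50 and lay above 4C by 4.67 (adjusted p 4.8e-04). Lrfn3, an adhesion molecule gene, rose by at least 5.07, and Ankfn1 fell by at least 4.67. Among imprinted genes, 26 of 45 were measured, 3 rose and 2 fell (19.2% against 13.6% of all genes), with a median of -0.07 (-0.18 with absent genes at their bound). Without melan-a replicate 3, 5 rose. With 4C11- replicate 2 left out, 1 rose. In total 1 fell without melan-a replicate 2, 4C11- replicate 2 or 4C11- replicate 3. Igf2, given above, was the largest rise of this list, and Plagl1, which encodes a zinc finger protein, was 7.30 and 7.39 in melan-a and 3.48, 4.99 and 4.87 in 4C11- and fell by 2.90.

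Over all genes, the largest rises and falls were ranked by the plain difference, in which a gene without reads enters at the lowest value of the library. Under that ranking the 12 largest rises were of genes absent from melan-a, and their printed bounds are smaller than the differences that ranked them. The values printed above for Col1a1, Col6a3, Bgn, Igf2 and Krt18 are larger than the bound of Gli2, so the order within the largest rises is not settled. Gli2, a transcription factor of Hedgehog signalling, was -3.15 and -2.58 in melan-a and 7.82, 8.13 and 7.72 in 4C11-. It rose by at least 8.29 (adjusted p 7.3e-08), and it lay above 4C by 2.02 (adjusted p 0.0271). Ptgfrn, which encodes a membrane protein that binds tetraspanins, rose by at least 8.11, and Svep1, a large matrix protein gene, rose by at least 7.72. Bdkrb2, the bradykinin receptor, rose by at least 8.00, and Steap4, a metal reductase gene, rose by at least 7.52. The others were Acta2 and Lamc3, given above, Lsp1 (at least 8.03), Clmp (at least 7.05), Syt13 (at least 7.03), Gsta4 (at least 7.73) and Rcn3 (at least 7.66). Of these 12 genes 7 were in the promoter table, and 0 held CATGTG or TGAGTCA.

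Among the 12 largest falls, ranked in the same way, were enzymes, receptors and adhesion molecules. Sox10, Itga8 and Mitf are not among the 12, although the falls printed above for them are larger than the bounds of Enho and Gjc3. Besides Tyrp1, Dct, Kit, Mlana and Cdh2, they held Car6, the gene of a secreted carbonic anhydrase, at 7.96 and 8.26 in melan-a and absent from 4C11-. It fell by at least 9.68 (adjusted p 5.9e-08). Nrcam, a neuronal adhesion molecule gene, fell by at least 8.72, Eya1, a transcription cofactor gene, fell by at least 8.26, and Prex2, an exchange factor for RAC, fell by at least 8.09. Bace2, the gene of a protease that processes PMEL, was 7.96 and 5.35 in melan-a and absent from 4C11-, and it fell by at least 8.22. The connexin gene Gjc3 fell by at least 7.50, and the peptide hormone gene Enho fell by at least 7.75. Of these 12 genes 6 were in the promoter table, and CATGTG was in 2, Tyrp1 and Dct.

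Runs of at least 3 neighbouring deposited genes with reads in both melan-a libraries and 3 reads or fewer in every 4C11- library occurred 2 times. On chromosome 16 the run was B3galt5, Bace2 and Mx1, and B3galt5, a glycosyltransferase gene, fell by at least 3.57. On chromosome 5 it was Cyp3a13, Gjc3 and Azgp1, of which Cyp3a13 fell by at least 3.45 and Azgp1 fell by at least 6.15. Runs in the opposite direction, chosen after their values were seen, were more numerous. The longest was of 10 genes, all of them past the threshold, in the Hoxc cluster, from Hoxc13 to Hoxc4 with the noncoding gene Hotair. The directions were not on an equal footing. The authors' filter removed genes expressed only in melan-a and could keep those shared by 4C11- and 4C. Absence was also asked of 2 libraries in melan-a and of 3 in 4C11-.

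By chromosome, a pattern chosen after its values were seen, the genes of chromosome 16 were lower in 4C11-. Its 421 genes had a median difference of -0.80, 85.0% had a difference below 0, and 97 fell while 15 rose. Among the 307 of them with a mean log2 value of at least 3, the median was -0.79. In windows of 10 Mb along the chromosome, all 10 medians were below 0, from -1.31 to -0.64. The libraries did not overlap: the median deviation of its genes from their mean over the 11 libraries, relative to all genes, was 0.31 and 0.34 in melan-a and -0.44, -0.39 and -0.35 in 4C11-. The median was -0.19 for 4C minus melan-a and -0.53 for 4C11- minus 4C. Snai2, Mx1, Bace2, Pros1, Ifnar2 and Il10rb, all given above as lower, lie on this chromosome. Chromosome 18, where Cdh2 lies, had a median of -0.50 with 44 falls and 25 rises. Chromosome 6 had a median of -0.42 with 89 falls and 52 rises. Chromosome 11 had a median of 0.31 with 35 falls and 140 rises. Chromosome X had 0.41 with 15 falls and 73 rises, but its median was 0.21 without melan-a replicate 2, 0.65 without melan-a replicate 3, 0.73 without 4C11- replicate 1 and 0.25 without 4C11- replicate 3.

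**Figure D5:**
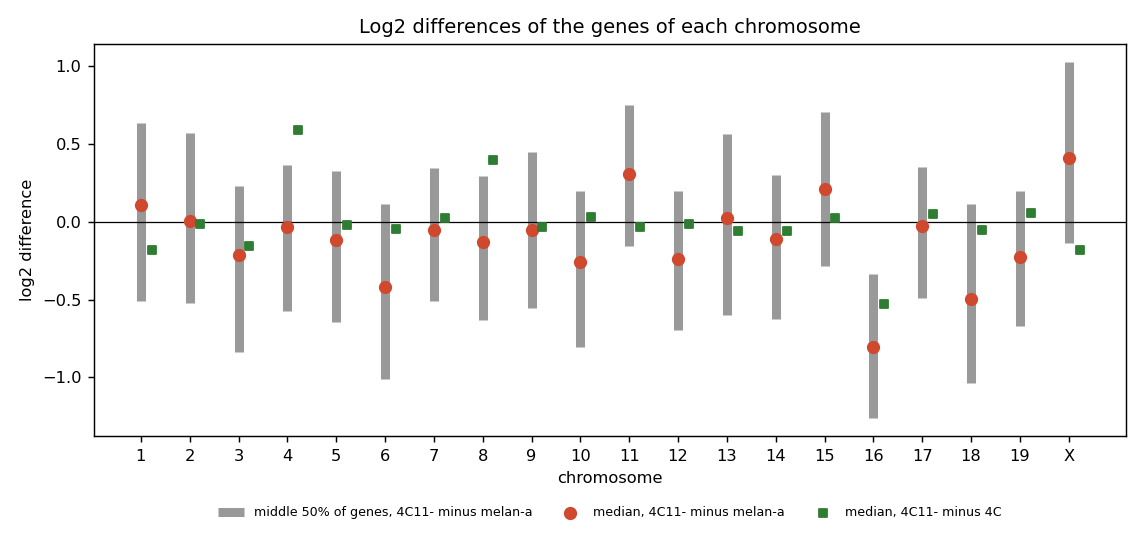
Log2 differences of the genes of each chromosome: the median (circle) and middle 50% (bar) for 4C11- minus melan-a, and the median for 4C11- minus 4C (square). Chromosome 16 has the lowest median of 4C11- minus melan-a, -0.80.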

How the data were processed

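The authors describe triplicate cultures of 4 lines, and 11 libraries were analysed here, without melan-a replicate 1. The authors made and deposited log2 CPM values with voom, with a filter that a gene had to reach 1 CPM in 4 libraries or more. A gene expressed only in 4C11- or only in melan-a could not pass that filter, while one shared by 4C11- and 4C could, and listed genes outside the 14272 were not analysed here. The deposited log2 values have the same highest value in all libraries, as a quantile step would leave them, which the methods do not mention, and were used as they are. The test was that of limma 3.58.1, run in R 4.3.3 (4 line means over 11 libraries, mean-variance trend, two-sided, Benjamini-Hochberg over all 14272 genes, adjusted p under 0.05), and the fit was tested on simulated data. An exact permutation of 2 against 3 libraries cannot reach p under 0.05 and was not used. Tables and figures used Python 3.11.15, NumPy 2.4.6, pandas 2.3.3 and matplotlib 3.10.9. Reads per gene at low values were taken from the steps between distinct values, and the read totals are unknown beyond that. Positions and exon lengths are from GENCODE M21.

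The text names the 12 largest rises and 12 largest falls past the threshold, ranked by plain difference, without overlap between libraries, up to 6 genes per list and direction past the threshold, members needed for their role with their values, the 12 histone enzymes, and runs of at least 3 neighbouring genes lost in 4C11-. The members and the 30 lists were chosen with earlier results of these data known. The alternatives were normalization, low-value filter, variance model, library weights, replicate block, minimum fold and each library left out. The libraries of 4C and 4C11+ entered the fit and side comparisons only. In the results above, the difference of a gene from 4C is printed only where it passed in limma. It did not pass for Col1a1 (-0.31, adjusted p 0.624), Acta2 (-0.50, adjusted p 0.796), Twist2 (0.53, adjusted p 0.595) or Mitf (-0.29, adjusted p 0.905).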

Additional observations from a re-analysis of the deposited data

How the results depend on the processing

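The 1940 genes past the threshold (1077 higher, 863 lower) stayed within 1.5 times under the further normalizations, the filter at a mean log2 value of 1 (1369), the variance models and the minimum difference. They were 843 (552 higher, 291 lower) with only the 5 libraries, which leave fewer degrees of freedom. With array weights, whose estimation did not converge, they were 1182 (666 and 516). That fit gave 4C11- replicate 2 a weight near 0 (3.7e-06), while weights estimated gene by gene gave it 4.54. Weights estimated gene by gene, chosen after seeing the data, gave 1689, and leaving out 4C11- replicate 1 and melan-a replicate 2 together, also chosen after seeing the data, gave 2094. With 1 library left out at a time, the range was 1366 to 2098 genes (812 to 1176 higher, 554 to 1080 lower), the lowest without 4C11- replicate 2; a lone melan-a library is then assumed to vary like the other lines. The replicate block gave 1876 (1001 higher, 875 lower). Libraries 2 and 3 of the 2 lines share only a number. Correlations of their deviations from the line means were -0.156 for number 2 and 0.290 for number 3 over genes, which are not independent replicates. The 2 melan-a deviations are mirror images of each other, so -0.156 and 0.290 are not separate evidence. With deviations taken from the mean of libraries 2 and 3 alone, the correlation was 0.161, the same for both numbers by construction. Of 199 named genes past the threshold, 139 stayed past it under all 16 alternatives that tested them, and 0 reversed; with only the 5 libraries 50 did not pass. Genes that did not pass changed sign as follows: with array weights, Kat5 -0.0629, Cdh1 -0.0149, Mki67 0.18; with array weights estimated gene by gene, Kat5 -0.0553, Prkcd -0.0266, Mki67 0.0505; with the replicate block, Kat5 -0.0952, Prkcd -0.00107; without 4C11- replicate 1 and melan-a replicate 2, Ets1 0.15, Fn1 0.32. With a library left out their differences were Ep300 -0.29 to 1.05, Kat5 -0.14 to 0.19, Hdac6 -0.40 to 0.0409, Setd2 -0.10 to 1.12, Slc7a11 -3.13 to 0.41, Atp7a -0.18 to 0.82, Ets1 -0.52 to 0.0860, Cdh1 -0.16 to 0.98, Prkca -0.37 to 0.65, Prkcd -0.26 to 0.53, Cdkn2a -0.0591 to 0.71, Mki67 -1.79 to 0.60, Fn1 -1.56 to 0.60. The cause was not tested. Depth limits genes near 3 reads, and only those absent from a group are given as bounds. Of 28 lists with a count past the threshold, 16 moved by over 1.5 times with only the 5 libraries. Among them were the TGF-beta and BMP list (15 to 7), the cytoskeleton list (9 to 5) and the matrix list (38 to 23). With array weights 9 lists moved so, and with the filter, which removes genes, 8 did. The filter left 8 of 23 Hox genes and 6 of 11 melanin synthesis genes.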

Other observations

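Replication-dependent histone genes, chosen after their values were seen, are near-identical copies, so single values are uncertain. Of 56 deposited, 4 rose, against 7.55% of all genes, and 0 fell, with a median difference of 1.11, and melan-a replicate 2 was below replicate 3 in 55 of them, with a median gap of -1.80. Hist1h1a, which encodes a linker histone, was -0.72 and 2.37 in melan-a and 7.34, 7.20 and 6.88 in 4C11-. The other rises depended on the libraries: the adjusted p of Hist1h1t was 0.100 without melan-a replicate 2, that of Hist1h1d 0.249 without melan-a replicate 2 and 0.0972 without 4C11- replicate 2 and that of Hist1h2bb 0.257 without melan-a replicate 2, 0.112 without 4C11- replicate 2 and 0.0600 without 4C11- replicate 3.

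The comparison rests on 2 melan-a libraries that differ from each other, on 1 line of each kind, and on lines grown with and without PMA. Values are relative within a library, so a change in total RNA per cell would not be seen. Genes that the deposited filter removed could not be read, and the medians of lists describe their deposited members only.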
